A study of Gallus gallus with 12 samples.

Results

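Electroporated chicken embryo cells that carried an overexpression construct for human miR-302 were set directly against electroporated cells in which chick miR-302 had been targeted. The comparison used 6 of the 12 libraries of the series, all labelled GFP positive (GFP+), with 3 in each arm. It covered every hairpin (miRNA precursor) entry of the deposited chicken-aligned table, 850 names after repeated names had been reduced to the entry with the highest mean, and the same libraries in the human-aligned table served as a check.

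Embryos had been electroporated with a vector encoding GFP plus either a construct deleting the chick miR-302 or a construct expressing the human one. They were grown to Hamburger-Hamilton stages 4 to 5, the stages of gastrulation, and sorted by GFP, so that GFP marks cells that took up DNA. The overexpression GFP+ group carried the human miR-302 construct and GFP. The knockdown GFP+ group carried the deletion construct and GFP, and is called knockdown after its genotype label. Both groups were therefore electroporated and manipulated, and no GFP+ library without a miR-302 construct was used. GFP-negative (GFP-) cells of the 2 arms, 3 libraries each, are given as background levels. The label of the cells names sorted embryo cells and no cell type. Nothing in the labels ties the replicates to different embryos, so a p-value measures only how far these samples spread, part of which may be technical.

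miRNAs are short RNAs cut from hairpin precursors, and a short stretch near their 5′ end, the seed, selects the messenger RNAs they repress. In vertebrates the miR-302 hairpins are made from a cluster shared with miR-367 and are known from pluripotent and early embryonic cells. The let-7 family is known for the opposite timing, since it accumulates as cells differentiate.

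The libraries differed strongly in depth. Knockdown GFP+ libraries held 49276 to 82211 chicken hairpin reads and overexpression GFP+ libraries 1292 to 3856, so 1 read stood for 0.476 to 0.866 normalized reads in the former and for 6.68, 24.4 and 15.9 in overexpression replicates 1, 2 and 3. Summed hairpin values were 39094 to 44837 in knockdown and 25772 to 31491 in overexpression GFP+ cells. A hairpin with no read could still stand at up to 73.1 normalized reads in overexpression replicate 2, taking 3 reads as the limit. Of the 850 hairpins, 503 had a read in a GFP+ library, 468 in the knockdown and 259 in the overexpression libraries, and 83 in all 6. The 46 whose mean over the 6 libraries reached 75 normalized reads were tested. They held 85.5% to 92.9% of the summed value of each library, and 43 of them had a read in every library. Of the 46, 7 had an overexpression mean under 75 and were tested only because of their knockdown values. They were gga-let-7k, gga-mir-106, gga-mir-16-1, gga-mir-183, gga-mir-218-1, gga-mir-218-2 and gga-mir-7-3. The reverse held for 2, gga-mir-10a and gga-mir-100. Counts of lower and of higher hairpins are not independent of this selection. Levels below are normalized reads as deposited, and group values are mean ± SD (n = 3). Differences are overexpression minus knockdown on the log2(value + 1) scale. The added 1 shrinks differences between very low levels. A library with no read can instead enlarge a difference, since 1 overexpression read stood for far more than the added 1. gga-mir-23b, with no read in overexpression replicate 2, differed by -2.18 on this scale and by -0.29 with edgeR on recovered reads. Intervals and limits cover counting error only.

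Most abundant hairpins were lower in the overexpression cells, and the chick miR-302 hairpins were among those with the clearest difference. limma, which estimates the spread of each hairpin with help from all the others, called 10 hairpins lower and 0 higher at a Benjamini-Hochberg adjusted p under 0.05. That is 21.7% of those tested in the lower and 0% in the higher direction, and 16 hairpins had an unadjusted p under 0.05. edgeR on recovered reads called 13 lower and 2 higher, and DESeq2 12 and 1. The 10 calls were gga-mir-302a, gga-mir-302b and gga-mir-302d, 4 let-7 hairpins, both gga-mir-122 hairpins and gga-mir-146c. In all 10 the 3 overexpression libraries lay below the 3 knockdown libraries, as they did in 16 of the 46 tested (34.8%). Only gga-mir-10a and gga-mir-130b had every overexpression library above every knockdown library (4.35%).

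The difference of a typical hairpin depended on how libraries were scaled. The median over the 46 hairpins was -0.67 with the deposited values, -0.11 with every library brought to the same summed value and -0.9999 with TMM scaling. Of the 46, 40 had a negative and 6 a positive difference in the deposited values. With the same summed value, limma (Benjamini-Hochberg) called 4 hairpins lower, gga-mir-302d, gga-mir-302b, gga-mir-302a and gga-let-7g, and 3 higher, gga-mir-92-1, gga-mir-92-2 and gga-mir-10a. Differences are therefore also given relative to the median of all tested hairpins. The calls also rested on single libraries: limma called 0 hairpins without knockdown replicate 1, knockdown replicate 3 or overexpression replicate 1, 5 without knockdown replicate 2, 15 without overexpression replicate 2 and 12 without overexpression replicate 3. In the 3 fits with no call, 14, 14 and 15 hairpins had an unadjusted p under 0.05.

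The targeted family was examined first. Its 5 chick hairpins, with that of gga-mir-1811, lie next to one another on chromosome 4 in the RefSeq gene table. gga-mir-302a stood at 4843, 2802 and 4845 normalized reads in knockdown replicates 1, 2 and 3, and at 715, 1804 and 904 in overexpression replicates 1, 2 and 3. All overexpression libraries were below all knockdown libraries, with overexpression replicate 2 the nearest to them. The means were 4163 ± 1179 and 1141 ± 582, 3.65-fold apart, and the log2 difference of -1.94 (SE 0.394) had a limma adjusted p of 0.0122 (Benjamini-Hochberg). Relative to the median hairpin the difference was -1.27. This was the lowest difference of the family and was called in 18 of 21 alternatives, more often than the other 3 tested members. It was not called without knockdown replicate 1 (limma adjusted p = 0.056), knockdown replicate 3 (0.128) or overexpression replicate 1 (0.051), within a range over the alternatives of 1.5e-10 to 0.128.

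gga-mir-302b, the most abundant member, had 6152, 4402 and 6112 normalized reads in the knockdown and 1631, 3388 and 1824 in the overexpression libraries. gga-mir-302d, which shares the family seed, had 5345, 4061 and 5338 against 1390, 2754 and 1744. For both, the groups did not overlap, and knockdown replicate 2 and overexpression replicate 2 lay closest to each other. gga-mir-302b fell by 1.35 on the log2 scale (SE 0.315, limma Benjamini-Hochberg adjusted p = 0.0131) and gga-mir-302d fell by 1.37 (SE 0.306, 0.0122), which is -0.67 and -0.70 relative to the median hairpin. Each was called in 15 of 21 alternatives. Besides the same 3 libraries left out, each lost the call with a minimum mean of 10, with all 12 libraries in the fit and with edgeR on summed hairpin reads as depth. The adjusted p values over the alternatives ran from 5.59e-09 to 0.128 for gga-mir-302b and from 3.6e-08 to 0.128 for gga-mir-302d.

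The less abundant members were not called by limma with the deposited values. gga-mir-302c had 1506, 605 and 1278 normalized reads in knockdown and 274, 512 and 507 in overexpression cells, with no overlap between groups. Its log2 difference of -1.34 (SE 0.453) had a limma adjusted p of 0.0509 (Benjamini-Hochberg). It was called lower in 9 of 21 alternatives, among them edgeR (adjusted p = 0.0195), DESeq2 (0.00761) and limma with TMM scaling (0.00595), within a range of 0.000635 to 0.406. gga-mir-367, whose seed is that of the miR-92 family, had 35.5, 15.2 and 26.8 normalized reads in the knockdown libraries and no read in any overexpression library. From the knockdown level 6.55 reads were expected there. Allowing for counting error only, and with the deposited scaling, gga-mir-367 was at least 2.18-fold lower, with the limit of 3 reads taken over the group. gga-mir-1811, whose gene lies between those of gga-mir-302c and gga-mir-302a in the table, had 103.1, 42.8 and 86.4 against 26.7, 48.8 and 31.7. Those groups overlapped, and the overexpression value rests on 8 reads.

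**Figure D1:**
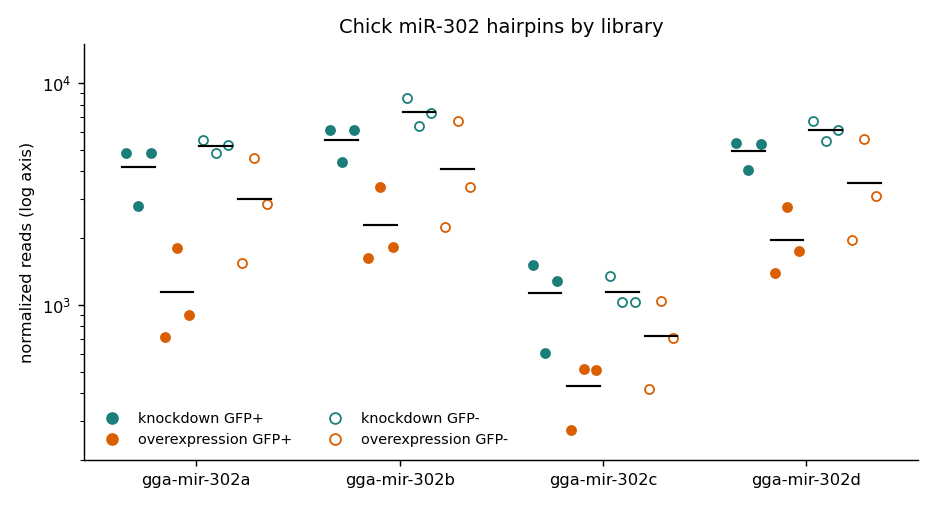
Normalized reads (log axis) of the 4 tested chick miR-302 hairpins, with 1 point per library and a bar at the group mean, for GFP+ and GFP- cells of both arms. For each hairpin the 3 overexpression GFP+ points sit below the 3 knockdown GFP+ points, and gga-mir-302c is the least abundant, at 274 to 1506 in GFP+ cells.

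Summed over the family, the values were 15789 ± 3384 normalized reads in knockdown and 5816 ± 2339 in overexpression cells, a ratio of 0.368. The log2 difference was -1.49 (SE 0.373), and the exact permutation test (two-sided) gave p = 0.1, the smallest that 3 libraries against 3 allow. The family made up 41.9%, 30.4% and 39.3% of the summed value in knockdown and 15.6%, 26.9% and 17.6% in overexpression replicates 1, 2 and 3. The shares did not overlap either (37.2 ± 6.02% against 19.99 ± 6.03%, log2 difference -0.92, exact permutation p = 0.1). In GFP- cells the family took 40.7% to 48.1% of the knockdown and 21.004% to 41.6% of the overexpression libraries. The arm with a construct against chick miR-302 thus had the higher mean share of reads placed on chick family hairpins in both sorted populations. In GFP- cells the libraries of the arms overlapped. A gga- name marks the hairpin a read was placed on and does not show the species that made it. In these bulk samples, fewer cells of a type and less RNA per cell cannot be told apart.

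The make-up of the chick family also differed. gga-mir-302a took 23.6% to 27.5% of the family reads in knockdown GFP+ libraries and 17.8% to 21.3% in overexpression GFP+ libraries, without overlap. In GFP- cells its mean share was 26.2% in the knockdown and 26.3% in the overexpression arm. The share of gga-mir-302d was 31.5 ± 2.35% against 34.1 ± 1.33% and that of gga-mir-302b 35.4 ± 1.44% against 39.1 ± 2.18% in GFP+ cells. Among the 4 tested members gga-mir-302a alone had a lower mean share in the overexpression GFP+ cells. gga-mir-367 took 0.128% to 0.199% of the family reads in knockdown and had no read in overexpression GFP+ libraries. Those held only 600, 347 and 314 family reads, too few for its absence to show a different share. These shares do not depend on the scaling between libraries.

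The human-aligned table holds the same libraries aligned to human hairpins, so it is a second reading of the same RNA and not independent evidence. An hsa- name marks the hairpin a read was placed on, not the species that made it, since reads of the knockdown arm also fell on human miR-302 hairpins. The 2 tables were normalized separately. Here the family hairpins went in both directions. hsa-mir-302a had 132.6, 128.4 and 65.5 normalized reads in knockdown and 181.3, 232 and 183.1 in overexpression replicates 1, 2 and 3. hsa-mir-302d had 227, 148.03 and 168 against 244, 696 and 476. For both, every overexpression library was above every knockdown library, while hsa-mir-302b was lower without overlap, at 5189 ± 1218 against 2364 ± 867. Of the 42 hairpins tested on human names, 3 were higher without overlap (7.14%) and 11 were lower (26.2%). An overexpression mean under 75 was found for 7 of the 42 and a knockdown mean under 75 for 4. These were tested only because of their values in the other arm.

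limma called none of these family differences with the deposited values and a minimum mean of 75. hsa-mir-302a had a log2 difference of 0.92 (limma adjusted p = 0.224), hsa-mir-302d of 1.28 (0.109) and hsa-mir-302b of -1.17 (0.1027, all Benjamini-Hochberg). With a minimum mean of 200, limma called hsa-mir-302d (0.0323) and hsa-mir-302b (0.00648), and it called hsa-mir-302b with TMM scaling (0.0374). The knockdown mean of hsa-mir-302d, 180.9, lay below 200. It passed that filter only through its overexpression values, so that call is not independent of the selection. Over the alternatives the adjusted p was 0.0251 to 0.481 for hsa-mir-302d, called in 3 of 16, and 0.00648 to 0.230 for hsa-mir-302b, called in 4 of 16. hsa-mir-302e stood at 47.5 ± 9.53 and 134.8 ± 118 normalized reads and hsa-mir-302c at 637 ± 305 and 391 ± 124.8, with overlapping groups. Of these, hsa-mir-302e was tested only because of its overexpression values. hsa-mir-367 had no read in overexpression cells, against 10.6 ± 5.34 in knockdown cells. The overexpression values rest on few reads, 39 for hsa-mir-302a and 75 for hsa-mir-302d over 3 libraries. The summed human-aligned family was 6174 ± 1575 against 3560 ± 1268, a ratio of 0.577 (log2 difference -0.82, SE 0.349, exact permutation p = 0.1), and hsa-mir-302b made up most of it. As a percentage of each library it was 25.4 ± 6.29% against 19.04 ± 5.29%, a log2 difference of -0.42 (exact permutation p = 0.3). Those percentages overlapped, since overexpression replicate 2 at 24.9% lay above knockdown replicates 2 and 3 at 21.8% and 21.7%.

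Within the human-aligned family the balance between members differed between the arms. The share used for this was chosen with earlier results of these data known. It sets hsa-mir-302a and hsa-mir-302d, which were higher here, against hsa-mir-302b, which was lower, and leaves out hsa-mir-302c and hsa-mir-302e. Its lack of overlap, the gap between its intervals and its p-value are therefore not independent of that choice. hsa-mir-302a and hsa-mir-302d together took 5.18%, 5.96% and 4.81% of the hsa-mir-302a, hsa-mir-302d and hsa-mir-302b reads in knockdown replicates 1, 2 and 3. In overexpression replicates 1, 2 and 3 they took 19.1%, 21.6% and 25.5%, with 95% Wilson intervals of 14.9% to 24.1%, 14.98% to 30.2% and 19.1% to 33.3%. The lowest of these bounds was above the highest bound of any knockdown GFP+ library, 6.45%. The difference was 16.8 percentage points (SE 1.91, exact two-sided permutation p = 0.1, the smallest possible), and it was 15.04 to 18.3 when any library was left out. In GFP- cells the 2 hairpins took 4.80%, 4.51% and 4.50% in knockdown and 6.46%, 6.97% and 6.28% in overexpression replicates 1, 2 and 3. Those shares did not overlap either, but the interval of overexpression GFP- replicate 1 reached down to 4.76%.

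Set side by side per library, the reads on human and on chick hairpins differed by member. For each 100 gga-mir-302a reads there were 1.13 to 4.55 hsa-mir-302a reads in knockdown and 8.11 to 21.5 in overexpression libraries. For miR-302d these numbers were 2.62 to 4.05 and 14.9 to 23.6. For miR-302b they were 63.0 to 102 and 62.6 to 93.9, and for miR-302c 38.6 to 61.0 and 52.4 to 84.4. The members whose human hairpins collected few reads in the knockdown arm were thus those that collected more in the overexpression arm, while the numbers for miR-302b and miR-302c overlapped between the arms.

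**Figure D2:**
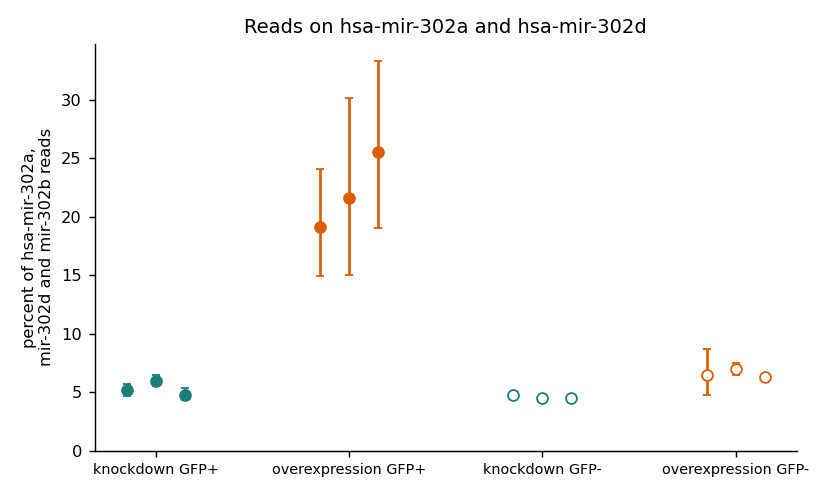
Percent of the hsa-mir-302a, hsa-mir-302d and hsa-mir-302b reads that fell on hsa-mir-302a and hsa-mir-302d, with 1 point per library and its 95% Wilson interval, in the 4 groups. The overexpression GFP+ libraries lie at 19.1% to 25.5% and the knockdown GFP+ libraries at 4.81% to 5.96%.

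The let-7 family formed the next group of calls. Of its 13 chick hairpins, 11 had a read and 9 were tested, with differences from -2.32 to -0.19. Of these 9, limma called 4 lower and 0 higher, and 8 were lower without overlap. Over all 46 tested hairpins 21.7% were called lower, 0% were called higher and 34.8% were lower without overlap. The 46 include the 9 let-7 hairpins, and the 16 that were lower without overlap include these 8. The median difference over the 9 was -1.05, against -0.67 over all 46 hairpins. gga-let-7c had 416, 557 and 666 normalized reads in knockdown and 147.04, 97.5 and 238 in overexpression cells, and gga-let-7g 384, 377 and 586 against 140, 24.4 and 190. Neither pair of groups overlapped, but the lowest value of gga-let-7g, in overexpression replicate 2, was 1 read. gga-let-7c fell by 1.83 on the log2 scale (SE 0.402, limma Benjamini-Hochberg adjusted p = 0.0122) and gga-let-7g fell by 2.32 (SE 0.619, 0.0223). gga-let-7a-1 fell by 1.37 (386, 518 and 601 against 220.6, 121.9 and 254, limma adjusted p = 0.0288). gga-let-7b had 379, 418 and 487 against 207, 219.4 and 206.2, the tightest overexpression group of the family, and fell by 1.01 (limma adjusted p = 0.0477).

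The let-7 hairpins that limma did not call had differences of -1.27 (gga-let-7a-2), -1.05 (gga-let-7j), -1.03 (gga-let-7f), -0.90 (gga-let-7a-3) and -0.19 (gga-let-7k). The first 3 had limma adjusted p values of 0.0509 to 0.0531 (Benjamini-Hochberg). edgeR and DESeq2 called gga-let-7a-2 and gga-let-7j lower as well, at adjusted p values of 0.04897 and 0.0418 for gga-let-7j, within a range over its alternatives of 0.0039 to 0.614. Copies of let-7a are near-identical and can share reads, whose division between copies no source used here describes. With the same summed value per library, the limma adjusted p values were 0.0404 for gga-let-7g, 0.0732 for gga-let-7c, 0.344 for gga-let-7a-1 and 0.614 for gga-let-7b, and the alternatives spanned 8.33e-06 to 0.208, 3.35e-05 to 0.128, 0.000614 to 0.454 and 0.00261 to 0.614. As a share of each library, let-7 took 7.67% to 10.6% in knockdown and 3.95% to 6.87% in overexpression GFP+ cells. In GFP- cells the share was 0.708% to 1.49% and 0.504% to 1.05%.

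Reads placed on human let-7 hairpins were lower too. hsa-let-7c was the 1 call of the human-aligned table (2.38% of 42, with 0% higher and 9 at an unadjusted p under 0.05). It had 423, 527 and 599 normalized reads in knockdown and 141.9, 154.6 and 146.5 in overexpression replicates 1, 2 and 3, a 3.50-fold gap with no overlap. It fell by 1.79 on the log2 scale (SE 0.281, limma Benjamini-Hochberg adjusted p = 0.0104) and kept the call in 11 of 16 alternatives. All 8 human let-7 hairpins tested were lower without overlap, with differences from -3.51 to -1.02 and a median of -1.54. Over all 42 the median was -0.57 and 11 (26.2%) were lower without overlap, and these 11 include the 8. The most negative differences, of hsa-let-7f-2 (-3.51) and hsa-let-7g (-3.00), come with no read in overexpression replicate 2. Their group means were 2.99-fold and 2.40-fold apart. The 8 also include copies of let-7a, which can share reads, so they are not 8 separate measurements.

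miR-122, the abundant liver miRNA, fell in the same direction as let-7. gga-mir-122-1 had 2121, 2701 and 2732 normalized reads in knockdown and 789, 731 and 1824 in overexpression cells, and gga-mir-122-2 had 300.6, 449 and 464 against 200.5, 121.9 and 126.9. The groups overlapped for neither, although overexpression replicate 3 came near the knockdown libraries for gga-mir-122-1. They fell by 1.30 (SE 0.393, limma Benjamini-Hochberg adjusted p = 0.0375) and 1.44 (SE 0.354, 0.0151) on the log2 scale, but at -0.73 and -0.88 with the same summed value neither was called (0.319 and 0.245, within ranges of 0.00248 to 0.344 and 0.000423 to 0.362). The hairpins can share reads. No human miR-122 hairpin reached the level for testing, so the human-aligned table was no check on these calls. In GFP- cells gga-mir-122-1 stood at 237 ± 163 in the knockdown and 79.7 ± 27.9 in the overexpression arm, lower than in either GFP+ group.

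Other members of the endoderm and liver list were low. Of its 8 hairpins 3 had no read in any GFP+ library, and only the gga-mir-122 pair was tested. gga-mir-194, known from liver and gut, had 28.6, 14.3 and 21.7 normalized reads in knockdown and no read in overexpression cells. Allowing for counting error only, and with the deposited scaling, it was at least 1.82-fold lower. gga-mir-375, an islet miRNA, stood at 32.5 ± 17.05 and 44.5 ± 45.97. The whole list took 5.82% to 8.16% of the knockdown and 3.10% to 6.99% of the overexpression GFP+ libraries, so its shares overlapped.

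The remaining call was gga-mir-146c, of the miR-146 family known from innate immune signalling, at 220, 230 and 279 against 80.2, 121.9 and 159 normalized reads. It fell by 1.06 on the log2 scale (SE 0.346, limma Benjamini-Hochberg adjusted p = 0.0477), which is -0.38 relative to the median hairpin. It was called in 8 of 20 alternatives, and with the same summed value its difference was -0.49 (limma adjusted p = 0.584, within a range of 0.00226 to 0.584). Its relative gga-mir-146a had 13.1 ± 3.11 normalized reads in knockdown and no read in overexpression cells. With the deposited scaling and counting error only, the limit was 1.11-fold lower, so near 1 that a lower level was not shown. gga-mir-21, the other tested member of the stress and inflammation list, had 1084 ± 146.5 and 888 ± 76.97, a difference of -0.28 that turned to 0.28 with the same summed value.

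The hairpins of miR-92 and of its clustered relatives, which include miR-17, miR-106 and miR-363, are known for promoting proliferation. Differences of those tested ran from -0.49 to 0.33, against a median of -0.67 over all tested hairpins. gga-mir-92-2 had 5249, 6494 and 6402 normalized reads in knockdown and 5046, 7093 and 5868 in overexpression cells, and gga-mir-92-1 had 2267, 2619 and 2531 against 2988, 3924 and 2569. Both pairs of groups overlapped, and the differences were -0.02 (SE 0.213) and 0.33 (SE 0.274). With the same summed value per library they were 0.55 and 0.90, both with a limma adjusted p of 0.0387 (Benjamini-Hochberg), while the alternatives spanned 0.0387 to 0.979 and 0.0235 to 0.989. The pair took 14.4 ± 2.16% and 5.88 ± 0.725% of the knockdown, and 20.9 ± 1.49% and 11.0 ± 1.77% of the overexpression libraries.

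None of the 5 tested members of these families was called with the deposited values, and the median was -0.17, against -0.67 over all hairpins. gga-mir-363, which carries the miR-92 seed, had 295 ± 53.9 and 227 ± 56.9, and gga-mir-106 had 111 ± 47.8 and 73.1 ± 6.23. Both differences, -0.39 and -0.49, turned positive with the same summed value, at 0.17 and 0.07. The list as a whole took 19.2%, 25.04% and 21.4% of the knockdown and 33.7%, 36.5% and 31.5% of the overexpression GFP+ libraries. In GFP- cells the shares were 20.5% to 27.3% and 28.3% to 33.6%. Shares of a library are bound to each other, so a lower share of miR-302 and a higher share of miR-92 are not separate measurements.

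**Figure D3:**
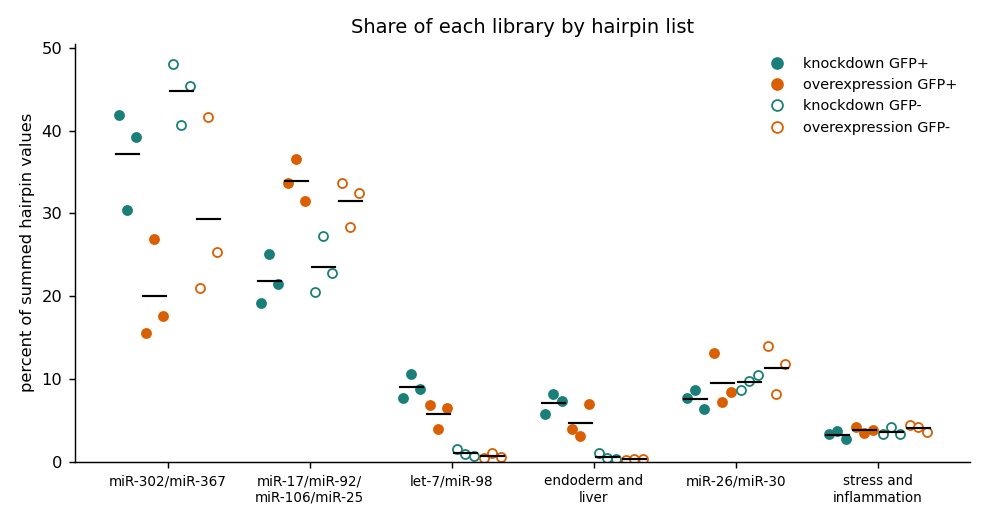
Percent of the summed hairpin values of each library held by selected hairpin lists, with 1 point per library and a bar at the group mean, in the 4 groups. In GFP+ cells the miR-302/miR-367 share is 30.4% to 41.9% in knockdown and 15.6% to 26.9% in overexpression libraries, while the share of miR-92 and its relatives is 19.2% to 25.04% and 31.5% to 36.5%.

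gga-mir-10a, encoded among the Hox genes that pattern the body axis, was higher in the overexpression cells without passing the test. It had 19.9, 36.1 and 18.4 normalized reads in knockdown and 53.5, 609 and 159 in overexpression replicates 1, 2 and 3. All overexpression libraries were above all knockdown libraries, over a wide range, and the overexpression value rests on 43 reads. The knockdown mean of 24.8 lay below the level set for testing. The hairpin was thus tested only because its overexpression values were high, above all the 609 of replicate 2. Its lack of overlap and its calls are not independent of that selection. The log2 difference of 2.82 (SE 1.02) had a limma adjusted p of 0.0531 (Benjamini-Hochberg). It was called in 7 of 19 alternatives, among them limma with the same summed value (0.0387), edgeR (adjusted p = 0.00698) and DESeq2 (0.00219), within a range of 6.16e-05 to 0.221. The other Hox-cluster hairpins were too low to test. gga-mir-10b had 2.599, 3.804 and 3.903 normalized reads against 0, 292.5 and 15.9, and gga-mir-196-2 had a read in only 1 overexpression library.

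limma called none of the other higher hairpins with the deposited values. gga-mir-130b, of a family sharing its seed with miR-301 and miR-454, had 58.05, 115.6 and 94.8 normalized reads in knockdown and 120.3, 121.9 and 142.7 in overexpression cells (difference 0.57, limma Benjamini-Hochberg adjusted p = 0.444). gga-mir-454 had 510 ± 81.7 and 717 ± 355. gga-mir-100 had 42.5, 95.6 and 38.5 against 334, 0 and 159, so its difference of -0.54 (SE 2.28) rests on the library with no read. It was 2.07 without overexpression replicate 2 (limma adjusted p = 0.00432) and 1.69 with edgeR (adjusted p = 0.04897), both calls, within a range of 0.00432 to 0.988 over 19 alternatives, of which 4 called it higher. In the human-aligned table hsa-mir-7974 was higher without overlap, at 25.4, 8.62 and 18.04 against 78.8, 193.3 and 256 (difference 3.23, limma adjusted p = 0.109). The knockdown means of gga-mir-100 (58.8) and hsa-mir-7974 (17.4) lay below the level set for testing. Both were therefore tested only because of their overexpression values.

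The tested members of the neural list were not called. Of its 22 hairpins 6 were tested, with a median of -0.95 and 1 lower without overlap, against -0.67 and 34.8% over all 46 hairpins, of which 21.7% were called lower. gga-mir-128-2 had 180 ± 36.3 and 139 ± 16.2 normalized reads, gga-mir-128-1 163 ± 43.4 and 120 ± 76.3, and gga-mir-7-1 127 ± 22.8 and 75.6 ± 50.1. gga-mir-218-2, known from motor neurons, was the member without overlap, at 76.2, 134 and 115 against 66.8, 24.4 and 63.4 (difference -1.15, limma Benjamini-Hochberg adjusted p = 0.379). The overexpression means of gga-mir-218-2 (51.5), gga-mir-218-1 (57.4) and gga-mir-7-3 (54.0) lay below the level set for testing. All of these were tested only because of their knockdown values. The list median and the lack of overlap of gga-mir-218-2 are therefore not independent of that selection. The list took 2.01% to 3.31% of the knockdown and 1.78% to 3.37% of the overexpression libraries.

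Among broadly expressed hairpins, none of the 7 tested of miR-26 and miR-30 was called, and their median was -0.24. gga-mir-26a had 730, 1028 and 366 normalized reads against 902, 561 and 571, and gga-mir-30d 689 ± 9.04 against 564 ± 138. gga-mir-26a had a difference of 0.02 that turned to -0.31 with TMM scaling, and gga-mir-30d one of -0.32 that turned to 0.25 with the same summed value. gga-mir-30e had 540 ± 66.6 and 340 ± 192.3 (-0.80). gga-mir-16-2 and gga-mir-16-1 had differences of 0.26 and -0.62, and gga-mir-16-2 turned to -0.06 with TMM scaling. gga-mir-103-1 had a difference of -0.02 (85.6 ± 29.98 against 97.2 ± 59.0), which was 0.53 with the same summed value. gga-mir-23b had 106.6, 96.5 and 83.6 against 53.5, 0 and 174.

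gga-mir-2954, a hairpin of the Z chromosome known in birds for higher levels in males, varied more within the arms than between them. It had 1499, 227 and 1638 normalized reads in knockdown and 154, 877 and 936 in overexpression replicates 1, 2 and 3. Knockdown replicate 2 and overexpression replicate 1 were the low libraries, and the groups overlapped (difference -0.71, SE 0.813, limma Benjamini-Hochberg adjusted p = 0.601). In GFP- cells it had 1753, 230.4 and 1421 in knockdown and 156, 1026 and 1442 in overexpression replicates 1, 2 and 3, so the low libraries had the same numbers in both sorted populations. The sex of the embryos is not given in the labels, and its part in the other differences was not tested.

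The lists of muscle, blood, epithelium and mesenchyme hairpins were low in the GFP+ libraries, and none of their members reached the level for testing. The muscle and cardiac list of 10 hairpins, 3 of them at 0, summed to 71.0 to 165 normalized reads in knockdown and 24.4 to 190 in overexpression cells. Its gga-mir-206, specific to skeletal muscle in vertebrates, had 18.2, 23.8 and 32.9 against no read. With the deposited scaling and counting error only, it was at least 2.11-fold lower. It does not stand for the list, which summed to 71.0, 117 and 165 in knockdown replicates 1, 2 and 3. In overexpression replicates 1, 2 and 3 the other members alone summed to 86.9, 24.4 and 190. The blood and endothelium list of 6, with 1 at 0, summed to 56.9 to 93.6 and 33.4 to 97.5. The epithelium list of 8, with 3 at 0, summed to 31.8 to 140 and 24.4 to 63.4. The mesenchyme list of 8, with 1 at 0, summed to 135 to 201 and 127 to 317. All of these ranges overlapped. In GFP+ cells the endothelial gga-mir-126 had 48.4 ± 13.6 and 43.9 ± 25.5 normalized reads, against 129 ± 30.4 in knockdown and 379 ± 103.005 in overexpression GFP- cells.

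Whether the arm difference of GFP+ cells differed from that of GFP- cells was asked in a fit of all 12 libraries. Over 54 hairpins limma called 0 (0%), with 2 at an unadjusted p under 0.05 and a smallest adjusted p of 0.853 (Benjamini-Hochberg). That fit takes all libraries as separate, but the GFP+ and GFP- libraries of an arm share their number in the labels. Deviations from the group means correlated positively in every same-numbered pair. Knockdown GFP+ replicate 1, however, correlated more with GFP- replicate 3 (0.168) than with its own number (0.107), so the values do not settle the pairing. With same-numbered libraries of an arm as pairs, in a fit chosen after seeing the data, limma called 1 hairpin, gga-mir-302a, and 4 had an unadjusted p under 0.05. The gap between its GFP+ and GFP- differences was -1.01 (SE 0.240, adjusted p = 0.00597), against a median gap of -0.38 over the 54 hairpins, while the fit without pairs gave the same gap with an SE of 0.580. The paired call remained with the same summed value per library (-0.71, adjusted p = 0.0299). It was lost with TMM scaling (-1.34, 0.0624), with a minimum mean of 10 (0.193) and without the pair of knockdown replicate 1 (0.236), knockdown replicate 3 (0.098), overexpression replicate 2 (0.133) or overexpression replicate 3 (0.454), within a range of 0.00125 to 0.454. For gga-let-7c the gap was -1.01 with an SE of 1.08 in pairs. Without pairs the 2 hairpins with an unadjusted p under 0.05 were gga-mir-126 (-1.78) and gga-mir-218-2 (-1.39).

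Across the 46 hairpins the differences in GFP+ and GFP- cells ran in parallel, as a description over hairpins that share libraries and scaling (Pearson 0.561, Spearman 0.597). Both were negative in 30 hairpins. The GFP- median was -0.24, with 31 negative. gga-mir-302b differed by -0.99 and gga-mir-302d by -0.92 in GFP- cells, and gga-mir-302a by -0.93, against -1.94 in GFP+ cells. gga-mir-122-1 differed by -1.40 in GFP- cells, close to its -1.30 in GFP+ cells.

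**Figure D4:**
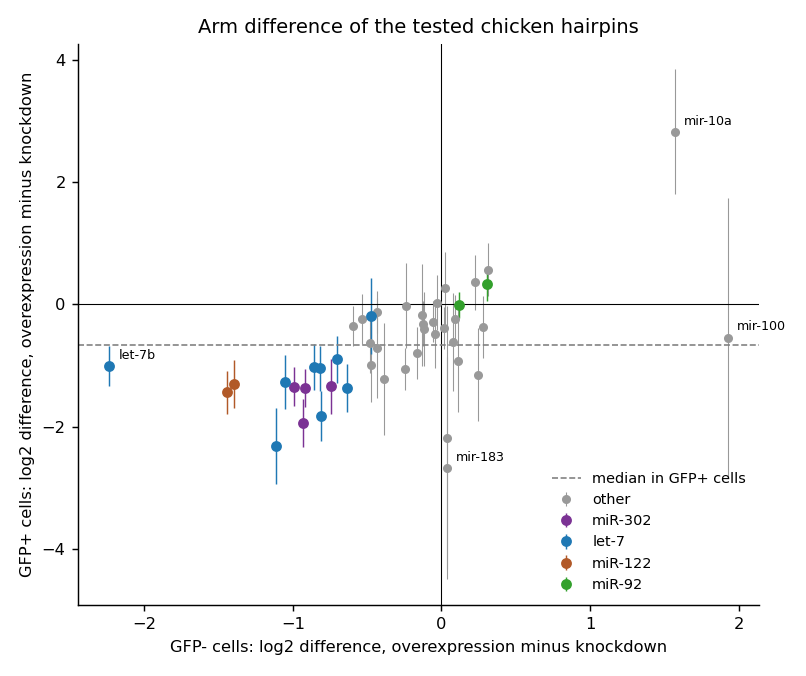
Log2 difference of overexpression minus knockdown for the 46 tested chick hairpins in GFP- cells (x axis) and GFP+ cells (y axis, with SE), with the miR-302, let-7, miR-122 and miR-92 hairpins coloured and the others in grey, and with a dashed line at the GFP+ median of -0.67. Most points lie at the lower left, where both differences are negative, and gga-mir-10a lies highest at 2.82.

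At the low end of the table, 4 hairpins had no read in the overexpression libraries although 3 or more were expected from the knockdown level, namely gga-mir-367, gga-mir-206, gga-mir-194 and gga-mir-146a. They were grouped by that absence, so their number is not a test of it. Their fold limits cover counting error only, while replicates differed by more than that. The limits also come from that same absence and rest on the deposited scaling. With the same summed value per library they would be smaller, since summed values were higher in the knockdown libraries. For gga-mir-146a only 3.32 reads were expected, and a lower level was not shown. In the other direction 35 hairpins had no knockdown read, but each had only 1 or 2 overexpression reads. At this depth such counts do not separate a higher level from a stray read.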

How the data were processed

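Small RNA of sorted chicken embryo cells was sequenced in 12 libraries, of which the 6 GFP+ ones were compared here. The submitters' processing notes name STAR 2.7.0f, cutadapt, FastQC 0.11.5 and the hg38 build. No source used here gives the chicken build, the counter or the factor of each library. The values of both tables the authors deposited are a normalized signal, whole reads divided by 1 factor per library where this could be shown, and not counts. In every library the hairpin values were whole multiples of the smallest value (tolerance 0.001 reads), and read numbers are value over that step. A separate unit check did not accept whole reads in 1 chicken-aligned GFP- and 1 human-aligned overexpression GFP+ library (replicate 2). Count tests were therefore run only on the chicken-aligned GFP+ libraries. The human-aligned read totals and Wilson intervals still use value over step. Every sample column of both tables was used or held no other sample (0 columns unused).

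The chicken-aligned table had 911 hairpin rows, of which 61 repeated a name and were dropped, 8 of them above 0. Its 1389 mature-arm rows were all at 0, so all values are for hairpins and arms could not be compared. The human-aligned table left 1913 names. RefSeq (a gene table of another build than could be named for the files) matched 775 of the 850 chicken names and gave chromosomes and neighbours.

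log2(value + 1) was used (a pseudocount of 1), and hairpins with a mean of at least 75 over the libraries of the fit were tested with limma 3.58.1 (R 4.3.3, empirical Bayes with trend, 2-sided, Benjamini-Hochberg adjustment over all tested hairpins, called under 0.05). Alternatives were other pseudocounts and minimum means, TMM or equal summed values, edgeR 4.0.16, DESeq2 1.42.0 and voom on recovered reads, a replicate block, a block of the GFP+ and GFP- libraries of 1 arm and number, all 12 libraries and each library left out. Such pairs come from the titles, and their deviations from group means correlated by 0.107 to 0.428 over 54 hairpins in all 6 pairs. Knockdown GFP+ replicate 1 correlated more with GFP- replicate 3 (0.168) than with its own number. Single values were compared by exact permutation (scipy 1.17.1). The scripts were tested on simulated data. Replicates of a group differed by more than counting noise.

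Named hairpins were every miR-302, miR-367 and miR-1811 hairpin, up to 10 calls per direction with non-overlapping groups, the 4 most abundant members of each list, the 5 most abundant per group and those with no read in a group where 3 or more were expected. gga-mir-100, gga-mir-23b, the remaining let-7 hairpins and hsa-mir-7974 were described too. The members and lists were chosen with earlier results of these data known.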

Additional observations from a re-analysis of the deposited data

Results flagged for a closer look

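gga-mir-302a was picked out because its arm difference in GFP+ cells was apart from that in GFP- cells in a paired test of the gap. That paired test was chosen after seeing the data. With the GFP+ and GFP- libraries of an arm and number as pairs, the gap was -1.01 on the log2 scale (SE 0.240, limma Benjamini-Hochberg adjusted p = 0.00597 over 54 hairpins, within a range of 0.00125 to 0.454 over the paired alternatives). Without pairs the same gap had an adjusted p of 0.853. The labels do not say that paired libraries came from the same embryos.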

How the results depend on the processing

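The chicken-aligned count of 10 lower calls was 5 with a minimum mean of 10, 3 with no filter, 1 with all 12 libraries in the fit, and between 0 and 15 when a library was left out. It was 20 (18 lower, 2 higher) with edgeR and TMM scaling and 4 (1 lower, 3 higher) with edgeR and the summed hairpin reads as depth, which were chosen after seeing the data. The other alternatives gave 7 to 15 calls. The human-aligned count of 1 was 5 and 4 with minimum means of 10 and 200, 0 with no filter, 6 with TMM scaling, 0 with the same summed value, 0 with all 12 libraries and 0 to 3 with a library left out; at an unadjusted p under 0.05 these 0 counts had 29, 8 and 11 hairpins. The comparison of GFP+ with GFP- arm differences gave 0 calls by limma in every alternative without pairs within an arm, with 0 to 18 at an unadjusted p under 0.05. With a replicate block within each arm, chosen after seeing the data, it gave 1 call, also 1 with the same summed value, with a pseudocount of 25 and with a minimum mean of 200, 0 with TMM scaling or a minimum mean of 10 (8 and 12 at an unadjusted p under 0.05), and 0 to 2 with a pair left out. With replicate number as a block, the chicken-aligned count was 10, of which 9 were shared (gga-let-7b was lost at a limma adjusted p of 0.146), and the human-aligned count 7 (6 lower, 1 higher), with hsa-mir-302d (0.0251) and hsa-mir-302b (0.0205) among them. Same-numbered GFP+ libraries of the 2 arms correlated by -0.249, -0.284 and -0.0725 in their deviations (chicken-aligned), and not every library correlated best with its own number, so the numbers were not taken to pair the arms. Within an arm, knockdown GFP+ replicate 1 did not correlate best with its own number either. The summed family kept its direction everywhere: its exact sign-flip p under the block was 0.25, its chicken-aligned difference was -1.80 to -1.26 and its human-aligned one -1.09 to -0.61 with a library left out, and the share of human miR-302a and miR-302d reads differed by 15.04 to 18.3 percentage points. Some named hairpins changed sign, among them gga-mir-23b (-2.18 as reported), gga-mir-2954 (-0.71), gga-mir-128-1 (-0.63) and gga-mir-100 (-0.54), which were not near 0. With pseudocounts of 10 and 25, gga-mir-100 was at 0.37 and 0.56 and gga-mir-103-1 at 0.0055 and 0.031. With the same summed value, gga-mir-103-1 was at 0.53, gga-mir-106 at 0.073, gga-mir-128-2 at 0.21, gga-mir-21 at 0.28, gga-mir-26a-2 at 0.32, gga-mir-30d at 0.25, gga-mir-363 at 0.17, gga-mir-92-2 at 0.55, hsa-mir-26a-2 at 0.13 and hsa-mir-30d at 0.31. With TMM scaling, gga-mir-16-2 was at -0.061, gga-mir-26a at -0.31, hsa-mir-16-1 at -0.14 and hsa-mir-21 at -0.33. With edgeR, DESeq2 and voom, gga-mir-100 was at 1.69, 1.53 and 0.66 and gga-mir-103-1 at 0.16, 0.16 and 0.13. gga-mir-26a was at -0.039 with edgeR and -0.042 with DESeq2, and gga-mir-26a-2 at 0.049 with voom. With edgeR and TMM scaling, gga-mir-100 was at 1.34, gga-mir-16-2 at -0.034 and gga-mir-26a at -0.37. With edgeR and summed reads, gga-mir-100 was at 2.28, gga-mir-103-1 at 0.74, gga-mir-106 at 0.0042, gga-mir-128-1 at 0.31, gga-mir-128-2 at 0.24, gga-mir-21 at 0.29, gga-mir-23b at 0.30, gga-mir-26a-2 at 0.49, gga-mir-30d at 0.33, gga-mir-363 at 0.24 and gga-mir-92-2 at 0.54. With a library left out, the ranges were -1.58 to 2.07 for gga-mir-100, -0.45 to 0.64 for gga-mir-103-1, -2.86 to 0.024 for gga-mir-23b, -0.39 to 0.35 for gga-mir-26a, -1.64 to 0.14 for gga-mir-2954, -0.15 to 0.10 for gga-mir-92-2, -0.059 to 0.97 for hsa-mir-16-2, -0.24 to 0.19 for hsa-mir-21, -0.47 to 0.067 for hsa-mir-26a-2 and -0.28 to 0.016 for hsa-mir-30d. The causes were not tested. Count tests planned for the human-aligned table and for the GFP+ against GFP- comparison were not run, because the unit check did not accept whole reads in every library. The 1292 to 3856 reads of the overexpression GFP+ libraries limit what can be seen of low hairpins. Depth and arm went together, since the knockdown GFP+ libraries held 49276 to 82211 reads. The part of depth in the differences, also in those of abundant hairpins, was not tested.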
